A study of Rattus norvegicus with 3 samples.

Results

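Solute carriers are membrane proteins that move small molecules across cell and organelle membranes, and each is named by its family number, a letter and its place in the family. The genes described here are those whose symbol begins with Slc and a digit, and they were taken from probe sets to which the platform annotation gives exactly 1 gene symbol. This rule found 181 probe sets for 120 genes in 37 families, out of 7006 such probe sets for 4736 genes. Of the 120 genes, 77 had 1 probe set and 43 had several, with at most 5. The arrays measured total RNA from the thoracic aorta of Sprague Dawley rats in 3 groups, each dosed for 20 days. The control group was given water at 1 ml/kg, and the other groups were given allylamine at 35 mg/kg (low dose) or at 70 mg/kg (high dose). Each group had 1 array, so no difference below has a replicate check, and there is no test and no p-value. The sources used here give neither sex nor age, nor whether an array carried the RNA of 1 rat or of a pool.

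Allylamine is an unsaturated amine that injures arteries, where an amine oxidase of smooth muscle turns it into acrolein, hydrogen peroxide and ammonia. Carriers work as uniporters, as cotransporters that draw on the sodium or proton gradient, or as exchangers, and the mitochondrial family passes metabolites across the inner mitochondrial membrane. In the vessel wall, carriers bring glucose and arginine into the cells, clear adenosine, move phosphate, and trade sodium for calcium or protons, which bears on contraction. The transporters of brain, kidney, liver and gut belong to the same families, so a set chosen by symbol also holds genes known mainly for other organs.

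Values are intensities on a linear scale, scaled so that the 3 arrays share 1 median. An intensity of 188, the 40th percentile of all scaled values, served as the floor under which a reading was not used in a difference. A gene's difference is the median, over its probe sets above the floor on both arrays, of their log2 differences, and a log2 difference of 1 is a 2-fold difference. Where 3 readings follow one another they are those of the control, 35 mg/kg and 70 mg/kg arrays, in that order. A pair of differences gives 35 mg/kg and then 70 mg/kg, each against control. Intensities of different probe sets are not set against each other as transcript amounts. In bulk tissue, fewer cells of a type and less RNA per cell cannot be told apart. Above the floor lay 122 of the 181 carrier probe sets on the control array, 108 on the low dose array and 123 on the high dose array. These are 67.4%, 59.7% and 68%, against 60.1%, 59.2% and 60.7% of all 8740 probe sets. No probe set of 7 genes was above the floor on any array: Slc12a5, Slc13a1, Slc13a3, Slc25a30, Slc2a2, Slc30a1 and Slc6a6. The 70 mg/kg array had the narrowest spread of values. Its 95th percentile lay above its 5th by 5.22 on the log2 scale, against 6.58 on the control array and 6.16 at 35 mg/kg. The 9 probe sets for bacterial and phage control transcripts were a median of 28.8 times as bright on it as on the control array, and 3.81 times at 35 mg/kg. The part of these array differences in the results below was not tested.

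Carriers moved in both directions at the high dose. Of 74 genes with a reading above the floor on each array of the pair, called measured here, 13 stood at least 2-fold higher than control and 21 at least 2-fold lower. Over all 2462 measured genes the shares were 19.7% higher and 23.2% lower, and those of the carriers were 17.6% and 28.4%. The median difference of the carriers was -0.52, with the middle of the distribution between -1.17 and 0.58, and that of all genes was -0.06. Another 10 of the 120 genes were above the floor at the high dose only and at least 2-fold over it, and 6 were above it in the control only by as much, where 8.02% and 8.11% of all genes did so. At the low dose, 10 of 65 measured carriers were at least 2-fold higher and 11 lower, or 15.4% and 16.9%, against 16.8% and 16.3% of all genes. Their median was -0.04, and that of all genes 0.04. One-sided readings went mostly the other way there, with 6 carriers above the floor at the low dose only and 15 in the control only, each at least 2-fold over it, against 4.46% and 5.57% of all genes. Both comparisons use the same control array, so their values are set side by side and no agreement between them is counted. Between the doses, 11 of 67 carriers were at least 2-fold higher at the high dose and 13 lower, or 16.4% and 19.4%, against 14.4% and 20.9% of all genes. One-sided readings at least 2-fold over the floor numbered 14 at the high dose only and 5 at the low dose only, against 7.62% and 6.84% of all genes. Among measured genes the shares of the carriers were near those of all genes. The one-sided low dose readings lay further off. In the control only, 15 of 120 carriers were at least 2-fold over the floor, against 264 of 4736 genes. Over all genes the brighter part had a median of -0.18 at the high dose and the dimmer part 0.04, and the carriers had -0.50 and -0.55 in these parts.

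**Figure D1:**
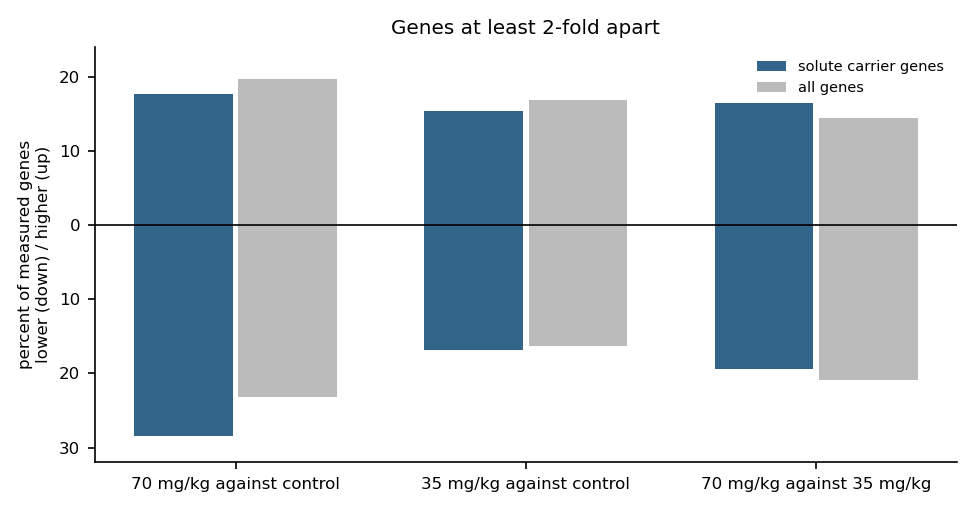
Percent of measured genes at least 2-fold higher (bars up) or lower (bars down) in each comparison, for solute carrier genes (blue) and all genes (grey). At 70 mg/kg against control 28.4% of the carriers lie below, against 23.2% of all genes, and the other bars of the carriers stand within a few percent of the grey ones.

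Among genes measured on the control and high dose arrays, the largest increase was that of Slc6a20a, a carrier of proline and other imino acids, which read 231 on the control array, 795 at the low dose and 1499.8 at the high dose. It was higher by 1.78 at the low dose and by 2.70 at the high dose, on 1 probe set. Next was Slc25a5, which exchanges ADP for ATP across the inner mitochondrial membrane, at 299, 853 and 1276, or 1.51 and 2.09 above control. Both were highest at the high dose. The largest decrease among them was that of Slc11a2, the proton-coupled importer of iron and other divalent metals, at 2239.5, 968 and 485, or -1.21 and -2.21. This rests on 1 of its 3 probe sets, since the others read below the floor on all 3 arrays. The glucose carrier Slc2a3 followed at -2.14. The stretches before the transcription start of the genes at either end are shown to set their base composition beside their values. They are 250 bases each, read 5′ to 3′ from RefSeq on GRCr8, and Slc2a3 was not used here. Capitals mark the letters GGGCGG (the GC box bound by Sp1) or CCAAT (the CCAAT box) on either strand.
Slc6a20a, chr8:132199901-132200150, minus strand: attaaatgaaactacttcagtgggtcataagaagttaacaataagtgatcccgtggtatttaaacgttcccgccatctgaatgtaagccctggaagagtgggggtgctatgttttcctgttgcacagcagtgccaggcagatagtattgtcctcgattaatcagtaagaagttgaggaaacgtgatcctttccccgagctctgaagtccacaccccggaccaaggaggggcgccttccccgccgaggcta
Slc25a5, chrX:120897366-120897615, plus strand: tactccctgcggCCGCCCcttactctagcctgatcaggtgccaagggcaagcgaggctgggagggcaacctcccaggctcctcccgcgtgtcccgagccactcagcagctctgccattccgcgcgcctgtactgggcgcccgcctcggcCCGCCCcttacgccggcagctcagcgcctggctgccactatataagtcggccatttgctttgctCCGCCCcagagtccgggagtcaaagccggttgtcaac
Slc11a2 downstream start, chr7:133417789-133418038, minus strand: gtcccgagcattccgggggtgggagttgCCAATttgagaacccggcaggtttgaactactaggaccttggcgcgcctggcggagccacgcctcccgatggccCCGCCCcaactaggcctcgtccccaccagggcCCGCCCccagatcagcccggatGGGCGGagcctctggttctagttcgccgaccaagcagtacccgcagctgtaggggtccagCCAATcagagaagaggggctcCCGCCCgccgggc
Slc11a2 upstream start, chr7:133418940-133419189, minus strand: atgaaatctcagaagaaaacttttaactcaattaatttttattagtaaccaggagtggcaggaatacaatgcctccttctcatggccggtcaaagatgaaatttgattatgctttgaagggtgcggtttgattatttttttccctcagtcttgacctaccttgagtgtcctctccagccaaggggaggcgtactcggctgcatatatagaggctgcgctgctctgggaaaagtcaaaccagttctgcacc
Of these, the start of Slc25a5 has 66.8% G and C and 3 GC boxes. The downstream start of Slc11a2 has 68% G and C, 4 GC boxes and 2 CCAAT boxes, while its upstream start has 43.6% and neither motif. Slc6a20a has 49.2% and neither. All 4 stretches were also searched on both strands for TATAAA, a core promoter element, and for TGACNNNGC, the core of the antioxidant response element, and neither was found in them. The promoter table matched 101 of the 120 carriers by gene ID, with 112 starts. A GC box stood in 46.4% of these and in 30.5% of all 33469 stretches of the same length. For CCAAT the shares were 34.8% and 34%, for TATAAA 8.04% and 12.9%, and for TGACNNNGC 15.2% and 10.1%. Median G and C content was 58.4% in carrier starts and 51.2% in all. The set of all stretches is not limited to genes on the array, and the motif shares were not matched for G and C content. A match of letters is a description and not a binding site.

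Beside the class and list counts from here on, the shares over all measured genes were 19.7% higher and 23.2% lower at the high dose. At the low dose they were 16.8% and 16.3%. Each class or list has few measured genes, so its counts are descriptions. Sugar carriers of families 2, 5 and 37 were represented by 12 genes. Of 8 measured at the high dose, 1 was at least 2-fold higher and 2 lower, with a median of -0.42, which was 0.11 with the brightest probe set per gene and 0.27 with a floor at the 55th percentile. The widely expressed glucose uniporter Slc2a1 had probe sets at 431, 94.5 and 293 and at 201, 606 and 1129 on the control, 35 and 70 mg/kg arrays. They went opposite ways, so its difference of 0.97 at the high dose is the middle of -0.56 and 2.49, and its 1.59 at the low dose rests on the second alone and was -0.30 with a floor at the 5th percentile. Slc2a4, the insulin-responsive glucose carrier of muscle and fat, also split, with probe sets at 2293, 220.2 and 219 and at 296, 769.6 and 547. Its medians of -1.0 and -1.25 join a large decrease on one to an increase on the other. Slc2a3, a glucose carrier best known from neurons, read 984, 599.6 and 223 on its brighter probe set and 293, 436 and 184 on the other. Its difference at the high dose comes from the brighter one, since the other ended just below the floor. Slc37a4, which takes glucose 6-phosphate into the endoplasmic reticulum, was higher by 1.61 at the high dose, from 462 to 655 and 1410.0, and its other probe set, at 61.9, 498 and 85.5, was above the floor at the low dose only. Counting that one by a floor at the 5th percentile turned the difference between the doses from 1.11 to -0.72. Slc5a6, the sodium-dependent carrier of biotin and pantothenate, was lower at the low dose by both probe sets, 1553 to 420.5 and 874 to 209.9, a median of -1.97. At the high dose these read 308 and 1472, so that one stayed low and the other did not, and the difference between the doses was 1.18, or -0.45 without less specific probe sets. The kidney glucose cotransporter Slc5a2 read 750.0, 208 and 138, which is -1.85 at the low dose and at least 3.98-fold lower at the high dose. The thyroid iodide carrier Slc5a5, at 439, 146 and 127, was at least 2.33-fold lower at the high dose. The fructose carrier Slc2a5 was at least 2.54-fold higher at the low dose, its probe sets reading 99.2, 478 and 135 and 41, 222 and 263.

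**Figure D2:**
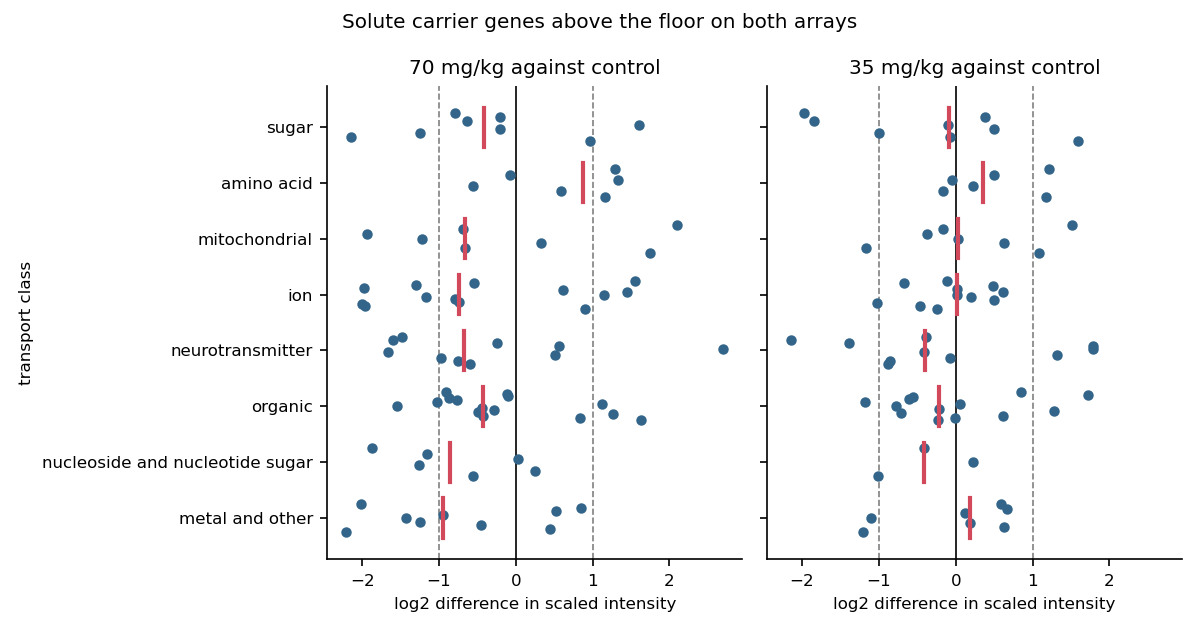
Log2 difference from control of each carrier gene above the floor on both arrays (points) by transport class, at 70 mg/kg (left) and 35 mg/kg (right), with the class median as a red bar and dashed lines at 2-fold. At 70 mg/kg the amino acid median stands at 0.87 and those of the other classes between -0.42 and -0.94, with points on both sides of 0 in every class. The amino acid median is over 6 genes, and was 0.25 over the 2 left without less specific probe sets. With a floor at the 55th percentile the ion, sugar and nucleoside medians were 0.76, 0.27 and 0.03. Classes follow family number, so the family 6 carriers Slc6a20a (2.70), Slc6a9 (-1.48) and Slc6a18 (-1.66), which also move amino acids, stand in the neurotransmitter class.

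Amino acid carriers of families 1, 3 and 7 stood above control at the high dose in 4 of 6 measured genes, with a median of 0.87. At least 2-fold higher were 3 of them, and 0 were lower by as much, against 19.7% and 23.2% of all measured genes. The measured probe sets of these 3, Slc1a1, Slc7a1 and Slc7a5, were all less specific ones. Without such probe sets 2 genes were left, neither of them 2-fold apart, with a median of 0.25. The class median was 0.36 at the low dose, where 2 of 6 measured genes were at least 2-fold higher. Slc7a5, the light chain that gives the large neutral amino acid exchanger its specificity, read 644, 1498 and 1582. Most of that increase was present at the low dose, at 1.22, and the high dose gave 1.3. Its heavy chain partner Slc3a2, which carries the complex to the cell surface, did not share one direction, with probe sets at 464, 540.2 and 314 and at 154, 262 and 563. Its difference of -0.56 at the high dose was 0.65 when both were counted, with floors at the 25th or 5th percentile. Slc7a1, the main uptake carrier for arginine and lysine, was higher by 1.33 at the high dose on a probe set at 234, 227 and 588. Another reached the floor at the high dose only, from 51.7 and 50.3 to 191, and the last read 41.9, 368 and 106. The related cationic carrier Slc7a2, at 316, 447 and 175, ended below the floor, and Slc7a3, at 229.6, 133 and 218, was at -0.08. The high-affinity glutamate carriers of family 1 follow. Slc1a1, which also takes up cysteine, had probe sets at 319, 927 and 1379, at 419, 735 and 488, and at 107, 138 and 598. The first 2 of these were higher than control on both allylamine arrays and the last was above the floor at the high dose only. Its median was 1.18 at the low dose and 1.17 at the high dose. Slc1a2, the main glutamate carrier of astrocytes, was at 0.58, with 3 measured probe sets from 0.08 to 2.44 and a further one that went below the floor, from 211 to 135. Slc1a3 had 4 probe sets below the floor in the control, the brightest at 120.1, and 3 of them were above it at the high dose, at 374, 488 and 617, so it was at least 3.28-fold higher. Slc3a1, the heavy chain of the cystine carrier of kidney and gut, read 58.9, 503 and 172, at least 2.67-fold higher at the low dose only. Of the list of carriers known to rise when amino acids run short, 5 of 9 genes had a usable probe set, and Slc7a1 and Slc7a5 were at least 2-fold higher at the high dose while Slc6a9 was lower.

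Mitochondrial carriers of family 25 divided by gene. Of 7 measured at the high dose, 2 were at least 2-fold higher and 2 lower, with a median of -0.66 that was 0.58 with a floor at the 5th percentile, and 2 more were higher from below the floor. The adenine nucleotide carriers pointed the same way, each on 1 less specific probe set. Beside Slc25a5, the form of heart and muscle, Slc25a4, read 40.7, 119.9 and 968, at least 5.14-fold higher at the high dose. The citrate carrier Slc25a1, which exports citrate for lipid synthesis, read 139, 382 and 974, at least 2.03-fold higher at the low dose and 5.17-fold at the high dose. The dicarboxylate carrier Slc25a10, which exchanges malate and succinate for phosphate, read 262, 555 and 875, or 1.09 and 1.74, on 1 of its 3 probe sets. All 4 were highest at the high dose, and the control and low dose readings of Slc25a4 both lay below the floor. With a floor at the 55th percentile, Slc25a5 and Slc25a10 were not measured against control. The family then had 4 measured genes at the high dose, with a median of -0.67. The 2 that were at least 2-fold lower at the high dose were not lower at the low dose. Slc25a20, which brings acylcarnitines in for fatty acid oxidation, read 799, 819 and 209.6, a difference of -1.93 at the high dose and 0.03 at the low dose. The peroxisomal cofactor carrier Slc25a17 read 787, 1211 and 337, or 0.62 and -1.23. The oxoglutarate carrier Slc25a11 was lower at the low dose by 1 probe set, at 1807, 807 and 1147, and its other read 52.6, 81.6 and 316. It was the only family member at least 2-fold lower at the low dose among the 7 measured, at -1.16. The phosphate carrier Slc25a3 read 240.4, 159.8 and 173 and was above the floor in the control only.

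Ion exchangers and cotransporters, 20 genes of families 4, 8, 9, 12, 24 and 26, had 13 measured at the high dose, of which 3 were at least 2-fold higher and 5 lower. Their median was -0.74, but 0.76 over the genes above a floor at the 55th percentile. At the low dose, 11 were measured, 0 were at least 2-fold higher and 1 was lower, with a median of 0.02 that was -0.30 when the floor was lowered to the 5th percentile. The sodium calcium exchanger Slc8a1, which removes calcium from muscle cells, had 5 probe sets and carried one of the widest contrasts between the doses. They read 1795, 1125 and 205, then 1707, 1800.2 and 252, then 487, 1062 and 215. These 3 were lower at the high dose than on either other array. The remaining readings were 315, 585 and 592, and 51.1, 95.7 and 441. They were higher at the high dose than in the control, so that the median of -1.97 at the high dose spans -3.13 to 0.91. The difference between the doses, -2.38, was 0.02 once the floor was raised to the 55th percentile, which leaves 1 probe set. Slc8a2, the exchanger best known from brain, read 2950.0, 1854 and 1199.9, or -0.67 and -1.30. Slc8a3 read 609, 49.8 and 416, at least 3.23-fold lower at the low dose and at -0.55 at the high dose. Among the cation chloride cotransporters, which set cell volume and chloride, the outward potassium chloride cotransporter Slc12a4 was lower on both probe sets. They read 999.6, 463 and 249.5, and 744, 391 and 108, for differences of -1.02 and -2.0. The inward sodium potassium chloride cotransporter Slc12a2 read higher than control at the high dose on 3 of 4 probe sets, at 451, 383 and 840.0, at 164, 322 and 1250.2, and at 184, 143 and 329. Its last probe set went down, at 282, 179.7 and 110.1, and the gene's difference at the high dose was 0.90 on the only one above the floor on both arrays. Between the doses it was 1.55. The thiazide-sensitive cotransporter of kidney, Slc12a3, read 1174, 135 and 302 and 266, 192 and 127, or -1.96 at the high dose. Bicarbonate carriers went both ways. The sodium bicarbonate cotransporter Slc4a4 read 357, 546 and 972, a difference of 1.45 at the high dose, and Slc4a7, of smooth muscle and endothelium, read 1428, 1445 and 2185, or 0.61. The anion exchanger Slc4a2 was at 1.14 on a probe set at 876, 180.4 and 1936, but its other went from 229.9 to 92.0, and with a floor at the 5th percentile it was at -0.09. Slc4a1, the anion exchanger of red cells, was lower on all 3 probe sets, from 1746 to 697, from 1142 to 508 and from 936 to 792, with a median of -1.17. Of the 2 red cell markers, Hbb read 122, 379 and 742 and Alas2 275, 231 and 1127, and the part of red cells in the Slc4a1 readings was not tested. The sodium proton exchanger Slc9a2 read 419, 388 and 1224, or 1.55 at the high dose.

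Carriers for neurotransmitters and related solutes, 20 genes of families 6, 17, 18 and 32, had 10 measured at the high dose, of which 1 was at least 2-fold higher and 3 lower. The median was -0.67, but 0.51 when the floor was lowered to the 5th percentile, and at the low dose 3 of 10 were higher and 2 lower, with a median of -0.40. The creatine carrier Slc6a8 read 945, 214 and 313, or -2.14 and -1.60, the largest decrease among carriers measured at the low dose. The glycine carrier Slc6a9 read 954, 726 and 342, or -1.48 at the high dose. Slc6a18, a kidney carrier of neutral amino acids, read 688, 108 and 218, or -1.66 at the high dose and at least 3.65-fold lower at the low dose. These 3 were below control on both allylamine arrays. The serotonin carrier Slc6a4 read 3333, 754 and 1562 and 637, 407 and 962, so that both probe sets were lowest at the low dose, at a median of -1.40, and it was at -0.25 at the high dose. The dopamine carrier Slc6a3 went the opposite way at the low dose, at 1356, 4659 and 2007, or 1.78 and 0.57. Its other probe set, at 95.7, 94.9 and 253, was above the floor at the high dose only, and the difference between the doses of -1.22 was 0.10 with a floor at the 5th percentile. The GABA carrier Slc6a13 was higher by 1.32 at the low dose, at 321, 802 and 139. The glycine carrier Slc6a5, at 152, 722 and 312, was at least 3.83-fold higher there, and Slc6a15, at 29.5, 505 and 139.7, at least 2.68-fold. Both were lower again at the high dose. The vesicular acetylcholine carrier Slc18a3 read 4073, 2278 and 2425 and 2526, 1340.3 and 184, and was at -0.88 and -0.75. The vesicular monoamine carrier Slc18a2 read 706, 147 and 468 on 1 probe set and 38.5, 32 and 319 on the other. Slc32a1, which fills vesicles with GABA and glycine, read 1066, 246 and 256 and 238, 312 and 258.

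Organic ion, carboxylate, peptide, vitamin and fatty acid carriers were the largest class, with 27 genes. Of 15 measured at the high dose, 3 were at least 2-fold higher and 2 lower, with a median of -0.43, and 4 more were higher and 4 lower as one-sided readings. The carnitine carrier Slc22a5 had the largest of these, at 179, 239.7 and 1198, at least 6.36-fold higher at the high dose and 2.32 above the low dose on the log2 scale. The organic anion carrier Slc22a6, known from kidney, read 176, 241 and 637, at least 3.38-fold higher. The organic cation carrier Slc22a2, also of kidney, read 463, 482 and 1011, or 1.13. In these 3 most of the difference lay between the doses. Other members of family 22 were lower: the polyspecific cation carrier Slc22a3 by -1.18 at the low dose on a probe set at 457, 201 and 268, although its other read 18.6, 393 and 219. Slc22a13 read 617, 359 and 59.7, at least 3.27-fold lower at the high dose, and Slc22a18 read 421, 80.3 and 45.7, at least 2.24-fold lower. Slc22a25 read 1175, 115 and 576, at least 6.24-fold lower at the low dose and at -1.03 at the high dose. The liver carrier Slc22a7 was lower on both probe sets at both doses, at 3960.4, 2985 and 1907 and at 2134, 1208 and 1323, or -0.61 and -0.87. The bile salt carriers of liver and gut read higher at the high dose. Slc10a1 was at 373, 95.9 and 1151, or 1.62, and Slc10a2 at 1017, 868 and 1811, or 0.83. The latter's difference between the doses, 1.06, was -0.28 with a floor at the 5th percentile, since this adds a probe set at 12.5, 123 and 39.7. The peptide cotransporter Slc15a1 read 279, 426 and 672, or 1.27. The reduced folate carrier Slc19a1 was lower on both probe sets at the high dose, at 2302, 1711 and 405 and at 478, 471 and 316, a median of -1.55. The lactate exporter Slc16a3 and the very long chain fatty acid carrier Slc27a2 peaked at the low dose. Slc16a3 read 779, 1898 and 643, or 1.28 and -0.28, and Slc27a2 read 618, 2044 and 329, or 1.72 and -0.91. The lactate and pyruvate carrier Slc16a1 read 137, 212 and 70.5 and 56.6, 55 and 98, above the floor on 1 probe set at the low dose only. The riboflavin carrier Slc52a3 read 552, 996 and 187, at least 2.93-fold lower at the high dose with a reading just under the floor.

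Nucleoside and nucleotide sugar carriers, families 28, 29 and 35, had 6 of 7 genes measured at the high dose, 0 at least 2-fold higher and 3 lower, with a median of -0.86 that was 0.03 with a floor at the 55th percentile. Slc29a1, the equilibrative carrier that clears adenosine, read 722, 542 and 302, or -0.41 and -1.26. The related Slc29a2 read 1533, 175 and 1565, so that it matched control at the high dose and was at least 8.14-fold lower at the low dose. The concentrative carrier Slc28a1 read 1949.5, 971 and 1327, or -1.01 and -0.55. Slc35f6 read 819, 83.6 and 225, or -1.87 at the high dose. Slc35b1 was at -1.16 on a probe set at 483, 85.5 and 216, but its other read 39.4, 81.7 and 712, and the gene was at 1.51 with a floor at the 5th percentile.

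Carriers of metals, phosphate, urea and choline-like solutes had 9 of 12 genes measured at the high dose, 0 at least 2-fold higher and 4 lower, with a median of -0.94. At the low dose 0 of 7 were higher and 2 lower, with a median of 0.18 that was -0.41 and -0.75 when the floor was lowered to the 5th and 25th percentile. Beside Slc11a2, the choline-like carrier Slc44a4 read 1521, 2289 and 377, or 0.59 and -2.01. The zinc carrier Slc30a2 read 1442, 174 and 536, or -1.43 at the high dose and at least 7.66-fold lower at the low dose. The phosphate cotransporter Slc20a2, found in smooth muscle, read 980.2, 457 and 412, or -1.10 and -1.25. The iron exporter Slc40a1, the counterpart of the importer Slc11a2, read 133, 94.8 and 508, at least 2.70-fold higher at the high dose, and its other probe set stayed below the floor. The kidney phosphate cotransporter Slc34a1 had 5 probe sets that did not move together. They read 586, 1299 and 226, 1000.5, 249.9 and 91.0, 608, 26.4 and 35.2, 325, 168 and 229, and 212, 231 and 149. At the high dose all 5 were below control, with a median of -0.94 over the 2 measured, and at the low dose the 3 measured ran from -2.0 to 1.15, while the other 2 went below the floor.

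Transporters known in the vessel wall were listed apart, and 16 of 20 had a usable probe set. Of 11 measured at the high dose, Slc25a5, Slc7a1 and Slc7a5 were at least 2-fold higher, and Slc2a4, Slc8a1, Slc20a2 and Slc29a1 lower, with a median of 0.61. Over all measured genes the shares were 19.7% higher and 23.2% lower. At the low dose 3 of 12 were higher and 2 lower, with a median of 0.12. The taurine carrier Slc6a6 stayed below the floor, at 41.1, 72.9 and 65.3. The smooth muscle markers had 5 of 6 genes above the floor on the control array, 4 at the low dose and 5 at the high dose, and their summed intensity was 5355, 3838 and 7031. They did not move together, and single probe sets weighed heavily in this sum too. Cnn1 read 218, 633 and 1580, and the brightest Acta2 probe set 1613, 1325 and 2603. Both Tagln probe sets were lower, at 922, 483 and 462 and at 414, 174 and 257, and Des read 370, 85.5 and 149. Myh11 and the other Acta2 probe sets went both ways. The endothelial markers had 4, 4 and 5 of 5 genes above it, and their sum was 3716, 6122 and 6865. Single probe sets weighed heavily in it, such as 1 of Nos3 at 451, 2591 and 178 and that of Kdr at 91.9, 144 and 1791. Fibroblast marker sums were 30072, 76803 and 33933, of which 1 probe set of Dcn gave 20940, 62304 and 16182. Their median reading was 331, 961 and 595, and 6 of 6 fibroblast genes were above the floor on each array. The adipocyte markers had 3, 4 and 5 of 6, with sums of 12105, 11651 and 6160 and Cfd below it throughout. The leukocyte markers had 4, 3 and 3 of 5, with sums of 3714, 2809 and 5411 and Itgam below it throughout. Skeletal and heart muscle markers had 7, 3 and 4 of 8, with sums of 5372, 4047 and 4287 and Tnni3 below it throughout. The part of these in the carrier readings was not tested.

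**Figure D3:**
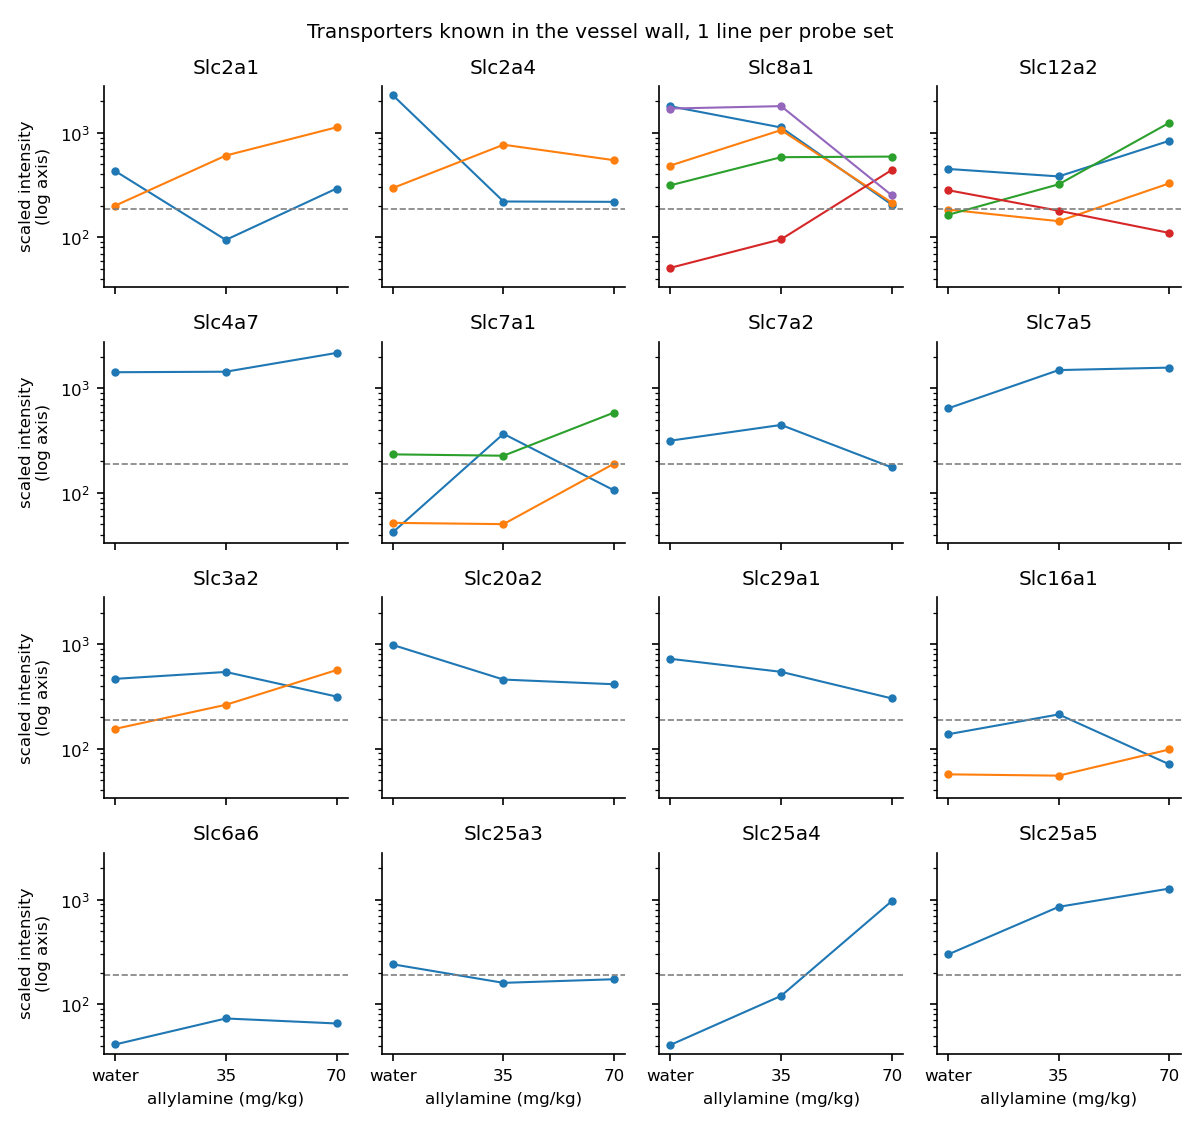
Scaled intensity on a log axis on the control (water), 35 and 70 mg/kg arrays for the 16 listed vessel wall transporters, 1 line per probe set and 1 array per point, with the floor of 188 dashed. Slc25a5 and Slc7a5 are higher on both allylamine arrays, Slc20a2 and Slc29a1 are lower on both, and the lines of Slc2a1, Slc2a4 and Slc8a1 cross.

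Carriers known for other organs gave readings too. In the brain list, 9 of 13 genes were above the floor in the control, 10 at the low dose and 11 at the high dose. In the kidney list it was 4, 8 and 6 of 10, and in the liver and gut list 7, 6 and 7 of 8. None of the 7 measured brain genes was at least 2-fold apart from control at the high dose. The shares over all measured genes were 19.7% higher and 23.2% lower. This hung on the floor and on medians. Slc18a3 was measured on 1 probe set, and its other went from 2526 to 184, just under the floor. Slc32a1 was at -0.97, with probe sets at -2.06 and 0.12. Another 2 brain genes were higher from below the floor. Of the kidney list, Slc22a2 (1.13) and Slc12a3 (-1.96) were at least 2-fold apart, and Slc34a1 (-0.94) was measured and was not. Of the liver and gut list, Slc10a1 (1.62) and Slc15a1 (1.27) were at least 2-fold apart. Slc10a2 (0.83), Slc22a7 (-0.87), Slc5a1 (-0.63), Slc27a2 (-0.91) and Slc28a1 (-0.55) were measured and were not. The defining neuronal and glial markers were themselves above the floor in 4 of 6 genes in the control, 5 at the low dose and 3 at the high dose. Their summed intensity was 2244, 4964 and 6476, with Nefm below the floor on every array. Hepatocyte markers were above it in 4, 3 and 2 of 4 genes, with sums of 3642, 3441 and 3179. Kidney tubule markers were above it in 2 of 4 genes on each array, with sums of 1735, 2540 and 1042 and Kap below it throughout. The part of other cell types in these readings was not tested.

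Pumps that keep up the gradients on which many carriers run are not solute carriers by name. Of the sodium potassium pump list, 7 of 10 genes had a usable probe set. The 5 measured at the high dose included 2 at least 2-fold higher, the pump's small regulators Fxyd4 (2.29) and Fxyd2 (1.58), and 1 lower, Fxyd1 (-1.88). The second probe set of Fxyd1 went the other way, from 105 to 1293. The beta subunit Atp1b1 was at 0.47 and Atp1b2 at -0.13. The probe sets of Atp1b2 split, going from 1201 to 2770, from 1372 to 660 and from 1412 to 1287. Of 7 measured calcium pump genes, phospholamban (Pln) was higher by 2.36 and the plasma membrane pump Atp2b3 by 1.08, and the intracellular store pump Atp2a3 was lower, at -1.70. Organic anion carriers named Slco had 2 of 5 genes measured, Slco1a5 at 1.92 and Slco1a4 at -1.06. Mitochondrial channels and uncoupling carriers had 3 of 5, with Ucp1 at 2.10, and aquaporins 4 of 9, with Aqp7 at 1.51. The value of Ucp1 is from 1 probe set, and its other, at 207, 177 and 182, ended just under the floor.

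Across doses, 56 carriers had a probe set above the floor on all 3 arrays. The control array held the highest value in 23 of them, the 35 mg/kg array in 14 and the 70 mg/kg array in 19, or 41.1%, 25% and 33.9%. Over all 2122 such genes these shares were 33.6%, 35% and 31.4%. The lowest value fell on the control array in 15, on the 35 mg/kg array in 15 and on the 70 mg/kg array in 26, or 26.8%, 26.8% and 46.4%, against 34%, 25.2% and 40.8% of all genes. Values increased at each step of dose in 13 carriers and decreased at each step in 14, or 23.2% and 25%, against 18.6% and 21.2% of all genes. Slc6a20a, Slc25a5 and Slc25a10 were among those that increased, and Slc11a2, Slc12a4, Slc29a1 and Slc8a2 among those that decreased. Slc27a2, Slc16a3 and Slc44a4 were highest at the low dose, and their differences between the doses were -2.64, -1.56 and -2.60. Among genes measured on both allylamine arrays, the largest increases between the doses were those of Slc22a5 (2.32), Slc9a2 (1.66), Slc12a2 (1.55), Slc22a6 (1.40) and Slc7a1 (1.37). Besides Slc27a2 and Slc44a4, the largest decreases among them were those of Slc34a1 (-2.53), Slc8a1 (-2.38) and Slc25a20 (-1.97). As bounds, Slc29a2 was at least 8.31-fold higher at the high dose than at the low dose and Slc10a1 at least 6.11-fold, and Slc52a3 was at least 5.29-fold lower and Slc6a13 at least 4.26-fold.

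Probe sets of one gene were the only repeat reading on an array. At the high dose, 13 carriers had several probe sets measured against control, 30 in all, and in 6 genes all had the same sign, or 46.2%, against 48.4% of 490 genes over the whole array. Their differences had an SD of 1.58 within a gene, against 1.40 over all genes. At the low dose the signs were alike in 8 of 16 carriers, with an SD of 1.12, and between the doses in 7 of 14, with an SD of 1.00. The SD between probe sets was therefore as large as the 2-fold threshold or larger. At the high dose the 6 carriers whose measured probe sets shared a sign were Slc1a1 and Slc1a2, which were higher, and Slc4a1, Slc19a1, Slc22a7 and Slc34a1, which were lower. Probe sets made from one sequence accession may share probes, as those of Slc19a1 and Slc22a7 do by their names.

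**Figure D4:**
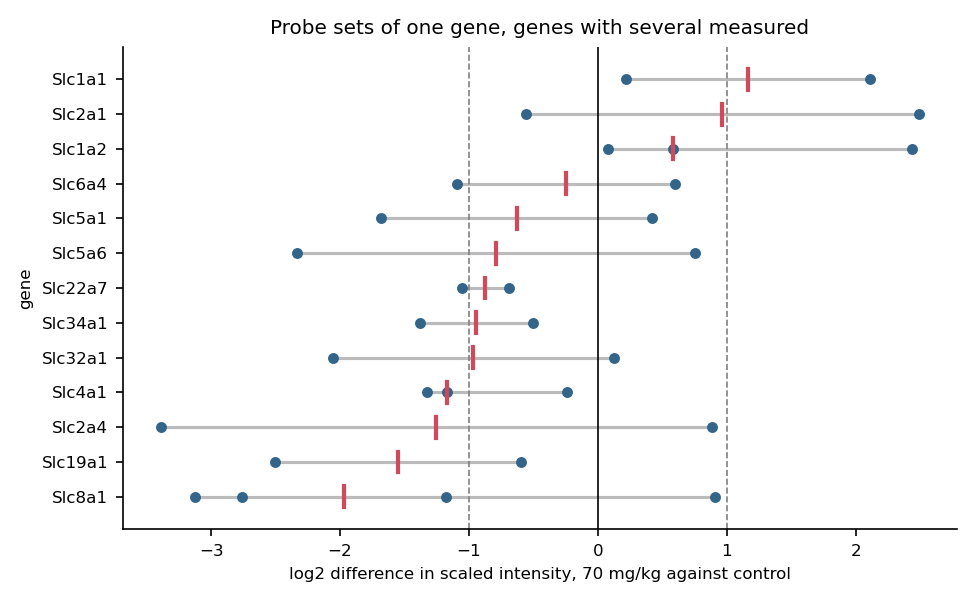
Log2 difference at 70 mg/kg against control for each probe set (points) of the 13 carriers with several measured, with the range as a grey line, the gene's median as a red bar and dashed lines at 2-fold. Slc1a1 and Slc1a2 lie wholly above 0 and Slc4a1, Slc19a1, Slc22a7 and Slc34a1 wholly below it, while Slc8a1, Slc2a4 and Slc2a1 reach both sides.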

How the data were processed

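For each array the deposited table gave an intensity per probe set, not log transformed. The sources used here do not give the authors' software or scaling. All values were above 0, and after trimming 2% at each end each array had a mean of 500, as a common scaling by the authors would leave them. Of 8799 probe sets, 59 control probe sets were left out. The platform annotation gave 1 symbol to 7006 of the 8740 kept, several to 308 and none to 1426. All 181 carrier probe sets matched the GRCr8 gene table by gene ID, which changed 0 symbols, and 2 probe sets that name a carrier among several symbols were left out.

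Each array was scaled to the mean of the 3 medians, a log2 shift of 0.06 (control), 0.04 (low dose) and -0.09 (high dose). A reading at or under the floor was not used in a difference. The sums and medians of intensity over marker lists take every probe set, also those under the floor. A gene with no probe set above it on both arrays, but with any above it on 1 array only, is given as a bound. The bound is the brightest such reading over the floor. Genes whose probe sets gave bounds in both directions, such as Slc6a2 at the high dose, have none and are not in the one-sided counts. No test was possible with 1 array in a group, and precision is limited by their number.

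Named genes are the 10 largest increases and 10 largest decreases for the high dose, 8 and 8 for the low dose, 5 and 5 between the doses, the 5 largest bounds each way, up to 4 per class, members of the vessel wall and amino acid lists, genes whose probe sets disagree and the brightest of the organ lists. Others were named after their values were seen, as were the promoters, since no protein sequences were used here. Members and lists were chosen with earlier results of these data known. Calculations used Python 3.11.15, numpy 2.4.6 and pandas 2.3.3 and were tested on simulated data. There all probe sets of a gene had the same change and much less spread than here. That test checks the arithmetic and not the precision of these values. The alternatives were 3 other scalings, 3 other floors, the brightest probe set, specific probe sets alone and a 3-fold threshold.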

Additional observations from a re-analysis of the deposited data

How the results depend on the processing

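Scaling kept most of the 2-fold calls, fewest among those lower at the low dose. With the values as deposited, quantile normalization or a common trimmed mean, all 13 carriers at least 2-fold higher at the high dose and 20 of the 21 lower ones were still so. Every count stayed within 1.5 times. Of the 11 lower carriers at the low dose, 9, 8 and 8 were still so, in the same order of scalings. The low dose counts of 10 higher and 11 lower became 10 and 9, 10 and 8, and 10 and 8. Floors and filters moved the counts, the shares and their balance. With a floor at the 5th percentile the share of lower carriers at the low dose went from 16.9% to 28.1% while that of higher ones went from 15.4% to 13.2%, and without less specific probe sets the high dose shares went from 17.6% higher and 28.4% lower to 10% and 36%. The shares of all genes under these 2 settings are not given here, so these shifts cannot be read as particular to carriers. The carrier medians were -0.23 and -0.58 there, and those of all genes -0.05 and -0.11. At the high dose against control the higher carriers numbered 28, 23 and 8 under percentile floors of 5, 25 and 55, 5 without less specific probe sets and 5 at 3-fold, and the lower ones 36 and 10 under those of 5 and 55 and 10 at 3-fold. At the low dose the higher ones numbered 5 without less specific probe sets and 4 at 3-fold, and the lower ones 32, 24 and 7 with the 3 floors and 3 at 3-fold. Between the doses the higher ones numbered 33, 25 and 7 with the 3 floors, 5 without less specific probe sets and 2 at 3-fold, and the lower ones 23, 20 and 7 with the 3 floors, 8 without less specific probe sets and 6 at 3-fold. Carriers highest on the control array were 52, 37 and 15 with the 3 floors. Those highest at the low dose were 26 and 8 with the 5th and 55th percentile and 9 without less specific probe sets, and those highest at the high dose were 36 and 31 with the 5th and 25th percentile and 7 without less specific probe sets. Those lowest in the control were 32 and 24 with the 5th and 25th percentile and 6 without less specific probe sets, those lowest at the low dose 40, 28 and 9 in the same order, and those lowest at the high dose 42 and 15 with the 5th and 55th percentile. These counts are over other numbers of genes, such as 114 with the 5th percentile floor at the high dose and 48 with the 55th. The carrier median at the high dose ran from -0.58 to -0.23 over the alternatives. Among differences of at least 2-fold, signs turned with a floor at the 5th percentile for Slc2a1 at the low dose (-0.30), Slc35b1 (1.51) and Slc4a2 (-0.089) at the high dose, and between the doses for Slc10a2 (-0.28), Slc37a4 (-0.72) and Slc6a3 (0.10). Between the doses they also turned for Slc5a6 without less specific probe sets (-0.45) and for Slc8a1 with a floor at the 55th percentile (0.019). In each case other probe sets of the gene entered or left. Smaller differences turned at the 5th percentile floor too, among them Slc18a2 (1.23), Slc25a11 (0.96), Slc3a2 (0.65) and Slc14a1 (-0.43) at the high dose, Slc4a2 (-1.13) at the low dose, and Slc25a14 (1.47), Slc18a3 (-1.39) and Slc11a2 (0.16) between the doses. Slc18a3 between the doses, at 0.09 with the main settings, was also at -1.26 with values as deposited and with a common trimmed mean. No paired analysis was possible because each group has 1 array and the labels carry no replicate numbers, and for the same reason no array could be left out. Readings near the floor limit what the one-sided differences show.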
